A study of Mus musculus with 6 samples.

Results

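The 8 genes described here are among the longest protein-coding genes of the mouse that held more than 70 accessible intervals in liver. They are Ptprd, Lrp1b, Cntnap2, Gpc5, Dlg2, Naaladl2, Macrod2 and Arhgap26, out of 21887 protein-coding genes. An interval belonged to a gene when it overlapped the RefSeq gene span, extended by 10 kb on either side, by at least 1 bp. By this rule the 8 genes held 658 of the 120905 intervals in the deposited list. ATAC-seq, which cuts and tags open DNA with a transposase, was applied to livers of wild-type males on a high-fat diet. According to the labels, 3 libraries came from the inbred strain 129S1/SvImJ and 3 from the inbred strain C57BL/6J. The tissue is labelled liver, while the protocol calls the transposed material LMs, which it does not spell out, and an antibody entry, Esrrg, stands in every library's labels although ATAC-seq uses none. The deposited list combined the libraries of both strains and gave positions alone, so no value below belongs to one strain, no strain difference was measured, and the depth behind each interval is unknown. The genes were chosen by their interval counts in this same list. Their counts and densities are therefore a description, given without a test, and the 95% intervals beside them cover counting error only. Those 95% intervals assume that accessible intervals were placed independently, which was not tested, and are too narrow where placement was clustered.

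Very long genes are made almost entirely of introns, and many of them encode adhesion molecules, receptors and scaffolds best known from neurons. Open chromatin inside introns can mark enhancers of the host gene or of a neighbour, internal promoters, or sites bound by other proteins, and ATAC-seq alone does not separate these. Ptprd encodes a receptor tyrosine phosphatase of the LAR type that takes part in synaptic adhesion. Lrp1b is a large endocytic receptor of the LDL receptor family, Cntnap2 (Caspr2) a neurexin-related adhesion protein of axons, and Gpc5 a heparan sulfate proteoglycan anchored in the membrane. Dlg2 (PSD-93) is a synaptic scaffold of the membrane guanylate kinase family. Among the remaining genes, Naaladl2 belongs to the NAALADase family of peptidase-like proteins, Macrod2 removes ADP-ribose from proteins, and Arhgap26 (GRAF1) is a GTPase-activating protein.

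Promoters are shown first, because they show whether the annotated starts of these genes lay in open chromatin. RefSeq sequences of GRCm38.p6, the mm10 build, covered 250 bases before to 50 after a start and were at hand for 4 of the 8 genes, Cntnap2, Gpc5, Dlg2 and Macrod2. Each is given 5′ to 3′ on the plus strand in lower case, with the bases that an interval covered in capitals.
Macrod2, chr2:140395180-140395479: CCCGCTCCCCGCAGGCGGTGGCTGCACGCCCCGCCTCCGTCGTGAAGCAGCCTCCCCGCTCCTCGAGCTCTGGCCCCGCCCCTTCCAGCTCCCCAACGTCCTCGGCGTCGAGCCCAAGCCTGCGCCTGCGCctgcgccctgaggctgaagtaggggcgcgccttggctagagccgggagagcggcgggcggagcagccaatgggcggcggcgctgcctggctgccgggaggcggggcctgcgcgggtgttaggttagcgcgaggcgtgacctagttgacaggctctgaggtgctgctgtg
Gpc5, chr14:115091965-115092264: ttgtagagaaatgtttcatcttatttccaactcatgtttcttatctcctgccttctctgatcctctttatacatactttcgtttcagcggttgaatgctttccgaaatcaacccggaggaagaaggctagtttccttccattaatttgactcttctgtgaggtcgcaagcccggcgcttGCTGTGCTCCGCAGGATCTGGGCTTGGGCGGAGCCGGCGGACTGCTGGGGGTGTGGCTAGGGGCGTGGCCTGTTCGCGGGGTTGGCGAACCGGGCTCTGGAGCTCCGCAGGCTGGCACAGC
Cntnap2, outer start, chr6:45059811-45060110: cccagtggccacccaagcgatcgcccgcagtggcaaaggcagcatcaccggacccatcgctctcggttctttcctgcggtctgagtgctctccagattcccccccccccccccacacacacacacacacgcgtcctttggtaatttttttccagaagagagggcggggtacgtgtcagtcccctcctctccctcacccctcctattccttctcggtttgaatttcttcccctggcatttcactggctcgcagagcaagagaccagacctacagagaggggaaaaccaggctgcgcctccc
Cntnap2, inner start, chr6:47244146-47244445: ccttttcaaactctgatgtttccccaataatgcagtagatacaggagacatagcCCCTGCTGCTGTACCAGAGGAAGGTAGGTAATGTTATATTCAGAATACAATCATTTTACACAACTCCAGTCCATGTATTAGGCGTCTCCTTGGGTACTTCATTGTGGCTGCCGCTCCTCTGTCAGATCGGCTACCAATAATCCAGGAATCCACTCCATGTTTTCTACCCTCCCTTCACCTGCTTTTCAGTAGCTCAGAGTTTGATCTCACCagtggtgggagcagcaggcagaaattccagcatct
Dlg2, first of 3 listed starts, chr7:91090536-91090835: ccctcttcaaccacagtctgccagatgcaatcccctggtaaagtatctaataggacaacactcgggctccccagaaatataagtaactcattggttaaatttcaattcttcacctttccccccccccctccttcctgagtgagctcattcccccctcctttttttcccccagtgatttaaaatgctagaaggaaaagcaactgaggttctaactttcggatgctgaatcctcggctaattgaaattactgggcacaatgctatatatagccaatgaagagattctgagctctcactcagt

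An interval covered 131 of the 300 bases in the Macrod2 window, 121 in the Gpc5 window and 211 at the inner Cntnap2 start, and none in the outer Cntnap2 or the Dlg2 window. Of all 21263 promoter windows of protein-coding genes, 48.4% were overlapped by an interval. The Macrod2 window had 33 CpG dinucleotides and 73.7% G and C, the Gpc5 window 17 and 54.7%, and the outer Cntnap2 window 14 and 59.7%. At the inner Cntnap2 start there were 3 CpG dinucleotides and 46.3% G and C, and the Dlg2 window shown had 3 and 44.7%. The median over all windows was 13 CpG dinucleotides and 56.3% G and C. Windows with 21 or more CpG dinucleotides were overlapped in 78.7% of cases and those with 3 to 5 in 15.8%. The inner Cntnap2 start was therefore an overlapped window of a CpG-poor kind that mostly was not overlapped.

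Distances from the starts filled in this picture. The outer Cntnap2 start had a 216 bp interval (chr6:45060225-45060440) centred 271 bp downstream, just beyond the window. In Gpc5 a 202 bp interval (chr14:115092144-115092345) was centred 29 bp downstream of the start, and in Macrod2 a 203 bp interval (chr2:140395108-140395310) was centred 221 bp upstream. A second Macrod2 start 5 bp further on shared that interval. The 3 listed Dlg2 starts lay 4515, 5240 and 23920 bp from the nearest interval centre, so none of these inner starts had an interval close by. The letters GGGCGG, a GC box, searched on both strands, occurred 3 times in the Macrod2 window, once each in the Gpc5 and outer Cntnap2 windows and in 46.2% of all windows. CCAAT, searched likewise, occurred in the Macrod2, inner Cntnap2 and Dlg2 windows shown and in 38.2% of all windows. TATAAA occurred in the Gpc5 window, not in the other 4 shown, and in 12.6% of all windows. These are letter matches only and show no bound factor.

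At the outer ends of the gene spans, 7 of the 8 genes had an interval within 1 kb, against 61.5% of all protein-coding genes and 54.8% of all genes over 700 kb. Among the 116 other genes over 700 kb the count was 61. Ptprd was the exception, with its nearest intervals centred 4371 bp inside the lower-coordinate end and 11673 bp inside the upper one. Naaladl2 had a 230 bp interval (chr3:25144132-25144361) whose centre lay 97 bp beyond the upper-coordinate end of the span, and Lrp1b a 201 bp interval (chr2:42652808-42653008) centred 690 bp inside its upper end. At the lower end of Dlg2 a 231 bp interval (chr7:90476031-90476261) was centred 42 bp outside the span and 151 bp from an end of Tmem126b. The 280 bp interval at the lower end of Arhgap26 (chr18:38601221-38601500) was centred 257 bp outside the span and 13 bp from an end of Spry4, an inhibitor of receptor tyrosine kinase signalling. These last intervals cannot be assigned to either gene of the pair. Strand was not given for Ptprd, Lrp1b, Naaladl2 and Arhgap26 in the tables used here, so an end of these genes is not called a start.

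The number of intervals per gene was similar across the 8 genes, while their lengths were not. The choice of genes with more than 70 intervals set a floor under these counts, so their likeness is no result. In the 116 other genes over 700 kb counts ran between 5 and 100, with a median of 33. Naaladl2 (chromosome 3, 23798103 to 25144149, 1.35 Mb) held 91 and Ptprd (chromosome 4, 75941237 to 78211742, 2.27 Mb) held 90. Lrp1b (chromosome 2, 40595290 to 42653598, 2.06 Mb) held 88 and Dlg2 (chromosome 7, 90476188 to 92449246, 1.97 Mb) held 82. For Macrod2 (chromosome 2, 140395303 to 142392966, 2.00 Mb) the count was 78. It was 77 for Arhgap26 (chromosome 18, 38601617 to 39376285, 775 kb), 76 for Cntnap2 (chromosome 6, 45060061 to 47301393, 2.24 Mb) and 76 for Gpc5 (chromosome 14, 115092201 to 116525192, 1.43 Mb). Arhgap26 thus passed the same threshold in a span of 775 kb as genes of more than 2 Mb, which its choice by count required. Between 74 and 90 intervals per gene were centred inside the span itself.

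More than 70 intervals were found in 14 protein-coding genes (0.064%), all of them longer than 700 kb, where the share was 11.3% of 124. The other 6 were Pde4d with 100, Zbtb20 with 81, Magi2 with 76, Robo1 and Robo2 with 74 each and Tenm3 with 71, so the 8 genes are not the full set above that number. Just inside the threshold stood Cntnap2 and Gpc5 among the 8 genes, and just outside it Foxp1 with 70 and Ptprg and Gpc6 with 69 each.

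**Figure D1:**
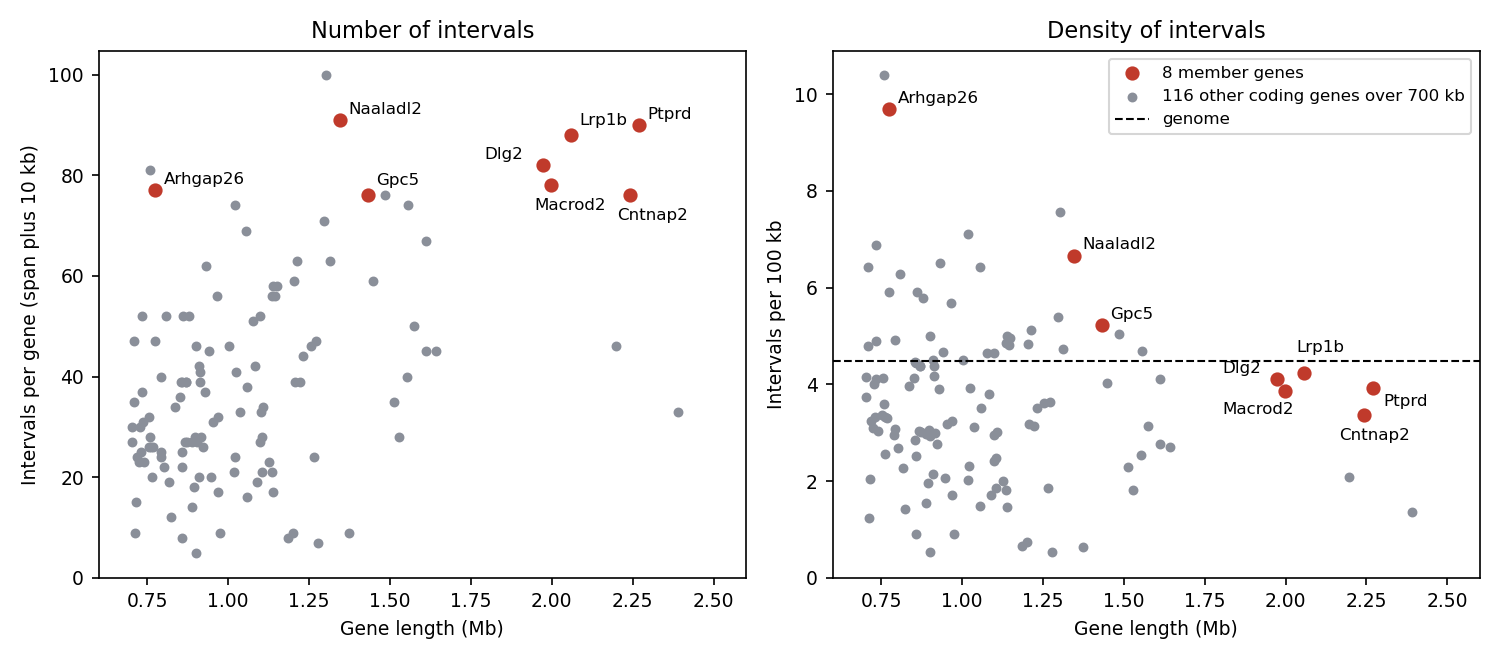
Intervals per gene (left) and intervals per 100 kb (right) against gene length in Mb for the 8 genes (red) and 116 other protein-coding genes over 700 kb (grey), with the genome value as a dashed line. Counts of the 8 genes lie between 76 and 91, whereas their densities run between 3.36 and 9.69 per 100 kb, with the 5 genes near or above 2 Mb below the genome value of 4.47.

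Densities differed among the 8 genes, and the choice by count favoured high density in the shorter ones. Arhgap26 had 9.69 intervals per 100 kb (95% interval 7.65 to 12.1, exact Poisson) and Naaladl2 6.66 (5.36 to 8.18), followed by Gpc5 with 5.23 (4.12 to 6.55). Lrp1b had 4.23 (3.40 to 5.22), Dlg2 4.11 (3.27 to 5.11), Ptprd 3.93 (3.16 to 4.83), Macrod2 3.87 (3.06 to 4.82) and Cntnap2 3.36 (2.65 to 4.21). In this order neighbours overlapped in their counting intervals. To pass 70 intervals in a span of 775 kb, Arhgap26 needed a higher density than any other of the 8 genes had. Its place at the top was therefore fixed by the choice and is no result about the gene. Over the genome there were 4.47 intervals per 100 kb, a value exceeded by 3 of the 8 genes and by 31 of the 116 other genes over 700 kb. Pooled over the 8 genes the density was 4.62 (4.27 to 4.98), against 3.44 (3.34 to 3.55) in the 116 others, a ratio of 1.34 (1.23 to 1.46). This ratio follows in part from the choice of genes with many intervals. Without Arhgap26 the pooled density was 4.32 (3.97 to 4.68).

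Among all 124 genes over 700 kb, Arhgap26 ranked 2 by density but 102 by length, while Ptprd ranked 2 by length and 51 by density. Cntnap2 ranked 3 by length and 62 by density, and Lrp1b 5 and 40. Across the 124 genes the correlation of length with the number of intervals was 0.48 (Pearson) or 0.39 (Spearman), and that of length with density was -0.12 or -0.10. Genes are not independent replicates, and all values came from a single list. The lowest counts among the other long genes were those of Tenm1 with 5 and Il1rapl2 with 7, both on the X chromosome, followed by Cdh13 and Trpm3 with 8 each. Genes over 700 kb thus held between 5 and 100 intervals.

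Intervals of exactly 201 bp, the narrowest width in the list, made up 59.7% of the 658 intervals (95% interval 55.9 to 63.5, exact Clopper-Pearson). They made up 58.0% (56.4 to 59.5) in the 116 other genes over 700 kb, where the range per gene was 25% to 92.6%, and 46.2% (46.0 to 46.5) over the genome. The share was above the genome value in 7 of the 8 genes and in 81 of the 116 others, so most very long genes held more 201 bp intervals for their number than the genome did. Within the 8 genes it differed widely. In Lrp1b 70 of 88 intervals were 201 bp (79.5%, 69.6 to 87.4) and in Cntnap2 54 of 76 (71.1%, 59.5 to 80.9). Ptprd with 62.2%, Gpc5 with 61.8%, Dlg2 with 61.0% and Macrod2 with 60.3% were close together. Naaladl2 had 45 of 91 (49.5%, 38.8 to 60.1) and Arhgap26 24 of 77 (31.2%, 21.1 to 42.7). The counting interval of Arhgap26 reached neither the genome value nor those of the genes other than Naaladl2.

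**Figure D2:**
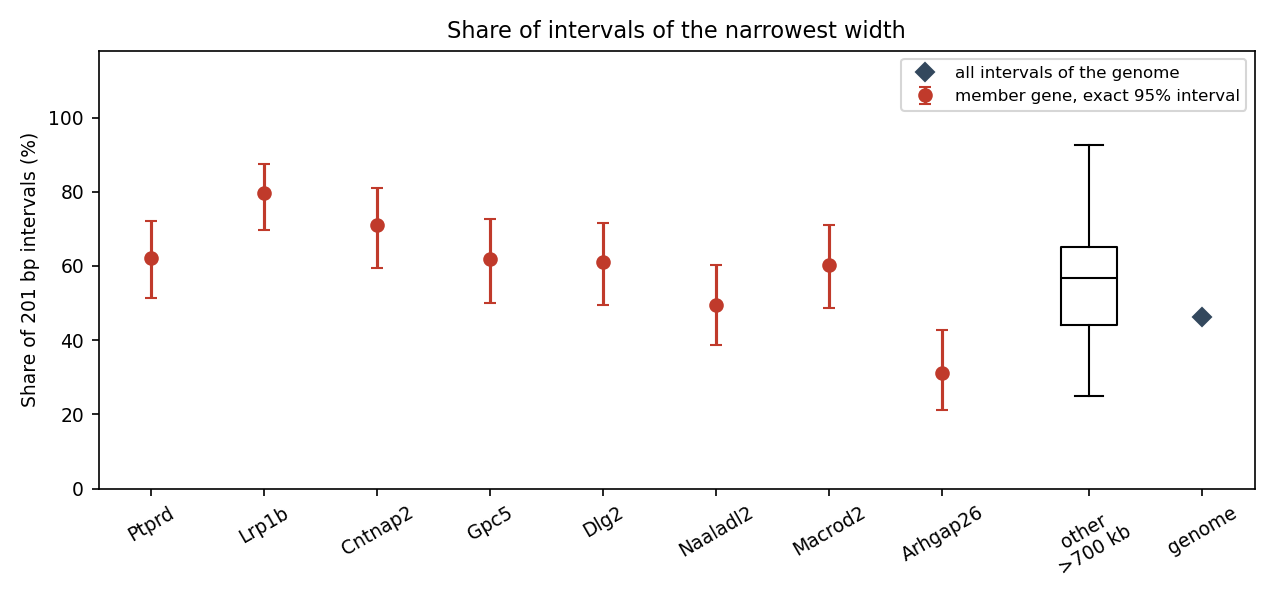
Share of intervals that were exactly 201 bp, in percent, for each of the 8 genes (red points with exact 95% Clopper-Pearson intervals), for the 116 other genes over 700 kb (box for quartiles and median, whiskers for the full range) and for all intervals of the genome (diamond). Lrp1b is highest at 79.5% and Arhgap26 lowest at 31.2%.

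Counting only intervals wider than 201 bp spread the genes further. Arhgap26 had 6.67 wider intervals per 100 kb (95% interval 4.996 to 8.72, exact Poisson) and Naaladl2 3.37 (2.47 to 4.49). The remaining 6 genes were below the genome value of 2.40. Gpc5 had 2.00, Dlg2 1.61, Macrod2 1.54, Ptprd 1.48, Cntnap2 0.973 (0.610 to 1.47) and Lrp1b 0.866 (0.513 to 1.37). Arhgap26 therefore differed from Lrp1b far more in wider intervals than in intervals of all widths. Of the 116 other genes over 700 kb, 17 were above the genome value, and their median was 1.40. Across the 124 genes density and the share of 201 bp intervals were nearly unrelated (Pearson 0.08, Spearman 0.17). What sets the width of an interval was not given in the sources used here, and its relation to signal strength was not tested.

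**Figure D3:**
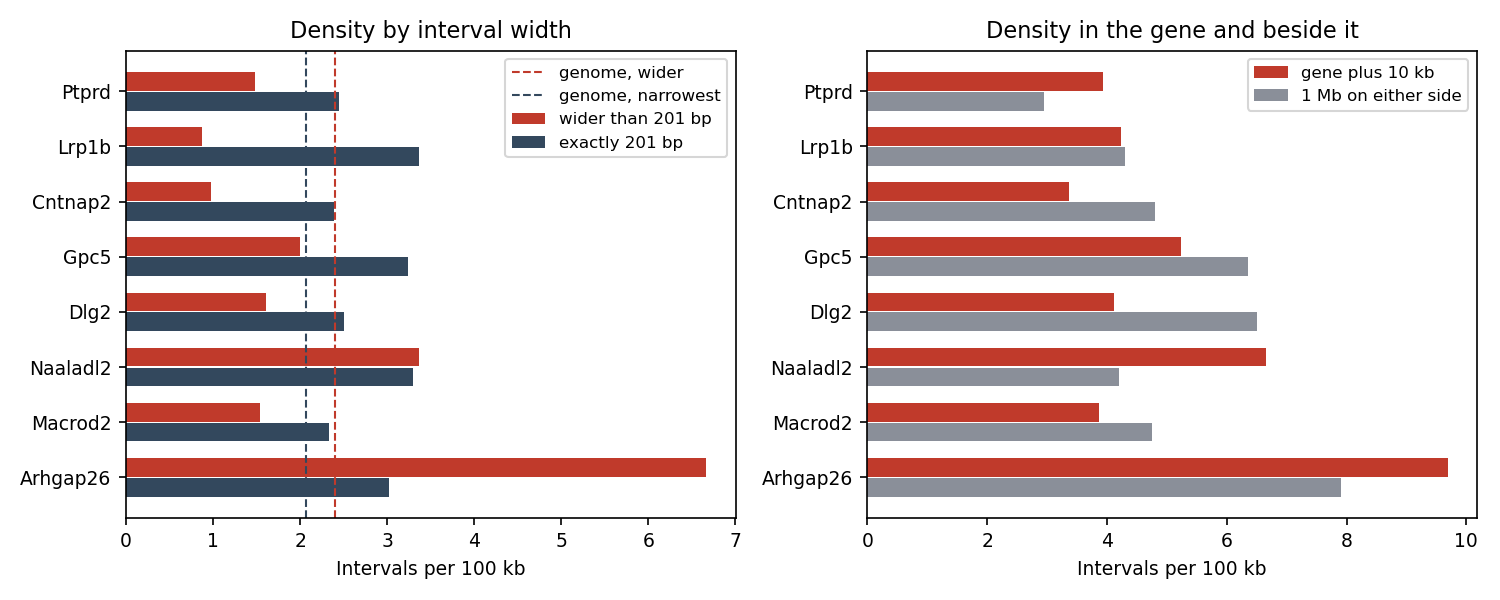
Intervals per 100 kb in each of the 8 genes, split into those wider than 201 bp (red) and exactly 201 bp (dark blue) with dashed lines for the genome (left), and in the gene (red) against the 1 Mb on either side (grey) (right). Arhgap26 has 6.67 wider intervals per 100 kb, and Lrp1b 0.866; Naaladl2, Ptprd and Arhgap26 exceed their surroundings.

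Surroundings of the genes differed too. In the 1 Mb beyond the window on either side, density was 7.90 per 100 kb around Arhgap26, 6.50 around Dlg2, 6.35 around Gpc5, 4.80 around Cntnap2, 4.75 around Macrod2, 4.30 around Lrp1b, 4.20 around Naaladl2 and 2.95 around Ptprd. The density inside Naaladl2 was 1.59 times, inside Ptprd 1.33 times and inside Arhgap26 1.23 times that of the surroundings. Lrp1b stood at 0.985, Gpc5 at 0.824, Macrod2 at 0.814, Cntnap2 at 0.700 and Dlg2 at 0.633. Arhgap26 thus lay in a region rich in intervals, whereas the surroundings of Naaladl2, Ptprd and Lrp1b were below the genome value of 4.47. Ptprd itself, with 3.93, was also below that value. These ratios are given without counting error and without values for the other long genes. The choice by count favoured high ratios. On their own chromosomes 4 of the 8 genes were above the chromosome's mean density, Dlg2 only by 4.11 against 4.09. No such count is given for other genes, so it cannot be read as high or low.

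Other protein-coding genes inside the windows accounted for few intervals except in Arhgap26. There, 20 of 77 intervals lay in or within 1 kb of another coding gene. Of these, 14 were in or near Fgf1, a fibroblast growth factor gene of 90.8 kb (chromosome 18, 38838672 to 38929470), 6 in or near the predicted gene Gm5820, which overlaps Fgf1, and 3 near Spry4. Without them Arhgap26 had 57 intervals, of which 31.6% were 201 bp, or 7.17 per 100 kb of the full window. The ground of the other genes was kept in this length, so the density outside them was higher than 7.17. In Macrod2, 2 intervals were close to Flrt3, a gene for an adhesion protein whose upper-coordinate end was 101 bp from an interval centre. In Dlg2 the count was 1, the interval shared with Tmem126b, and it was 0 in the other 5 genes.

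Within the genes, intervals were spread over the whole span. With each span cut into 10 equal parts, every part of every gene held at least 3 intervals. The most uneven was Ptprd, in which parts 2 and 3 from the lower-coordinate end held 39 of 90 intervals, 20 of them wider than 201 bp, and its longest stretch without an interval was 177 kb. Below the midpoint of its span Ptprd had 56 intervals, 48.2% of them 201 bp (95% interval 34.7 to 62.0, exact), and above it 34, with 85.3% (68.9 to 95.05). In Macrod2 the counts were 52 below the midpoint and 25 above it. Naaladl2 leaned the other way with 37 and 52, as did Gpc5 with 30 and 46, and Arhgap26 had 37 on each side.

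Cntnap2 showed a change of width along the gene without a change of number. It had 39 intervals below the midpoint and 35 above it, of which 84.6% (69.5 to 94.1) and 60% (42.1 to 76.1) were 201 bp. In the upper 20% of the span 11 of 12 intervals were wider than 201 bp, and this part holds the inner start shown above. In Lrp1b, by contrast, the share was 80.5% below and 80.4% above the midpoint, and Dlg2 had 62.2% and 61.4%. The regions of Ptprd and Cntnap2 were singled out after their values were seen.

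**Figure D4:**
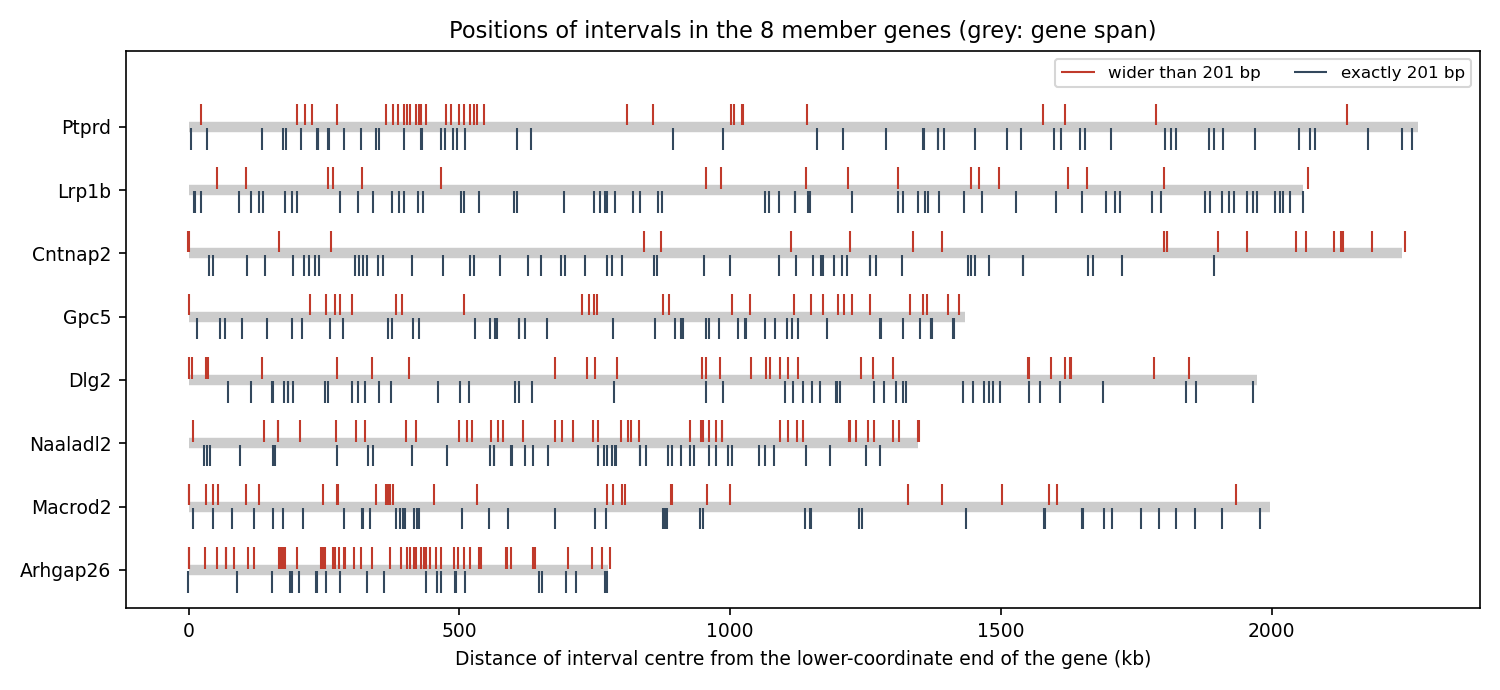
Position of each interval along the 8 genes, in kb from the lower-coordinate end of the span (grey bar). Ticks above a bar are intervals wider than 201 bp (red) and ticks below it are intervals of exactly 201 bp (dark blue); the wider ones gather in parts 2 and 3 of 10 of Ptprd and in the upper 20% of Cntnap2, where they are 11 of 12.

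At a limit of 5 kb the share of close neighbours was near that of the other long genes, but typical gaps were shorter. The median over genes of the median gap was 13.2 kb in the 8 genes and 17.0 kb in the 116 others. The 8 genes were chosen by count and were denser, so neither value measures clustering apart from density. Over the 8 genes 115 of 650 neighbouring pairs of intervals (17.7%, 95% interval 14.8 to 20.8) had centres less than 5 kb apart, against 17.99% (16.8 to 19.2) in the 116 others and 26.5% over the genome. Of the 8 genes Arhgap26 had the closest spacing, with 40.8% of its pairs and a median gap of 7.10 kb. That share was beyond the highest value of 36.1% among the 116 others, but not beyond that of every shorter gene rich in intervals. Ptprg had 41.2% and a median gap of 6.10 kb, and Prkce 42.2% and 5.67 kb. Nav2 with 37.5%, Foxp1 with 34.8% and Plcb1 with 27.0% were below Arhgap26. Within the 8 genes Naaladl2 followed with 23.3% and 10.7 kb and Macrod2 with 20.8% and 15.2 kb. The lowest were Lrp1b with 9.20% and 14.1 kb and Cntnap2 with 8.00% and 21.9 kb. A denser gene has shorter gaps by construction, so the coefficient of variation of the gaps, which does not depend on density, is given beside it. It ranged between 0.872 in Cntnap2 and 1.21 in Ptprd, with 1.02 in Arhgap26, against a median of 1.06 in the 116 others. Intervals placed independently of each other at an even rate give a value near 1, and Arhgap26 was close to it despite its short gaps. The order of the gaps does not enter this value. The variance over the mean of counts in 50 kb tiles was 1.49 in Arhgap26. It ran between 0.720 in Gpc5 and 2.35 in Ptprd, against a median of 1.10 in the 116 others. Whether placement was independent was not tested.

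Runs of neighbouring intervals less than 5 kb apart were short. Arhgap26 had 5 runs of at least 3 intervals, Ptprd, Naaladl2 and Macrod2 had 2 each, Lrp1b, Gpc5 and Dlg2 had 1 each, and Cntnap2 had none. The longest, of 5 intervals, were in Ptprd and Arhgap26. Intervals in such runs or pairs were 201 bp in 116 of 210 cases (55.2%, 48.2 to 62.1) and those standing alone in 277 of 448 (61.8%, 57.2 to 66.3). Without Arhgap26, which held 53 of the 210, the values were 97 of 157 (61.8%) and 272 of 424 (64.2%), an alternative chosen after the data were seen. The share was higher in runs or pairs than alone in 4 genes, Gpc5, Arhgap26, Macrod2 and Lrp1b, and lower in the other 4. The widest gap was in Gpc5, with 18 of 19 grouped intervals at 201 bp (94.7%) and 29 of 57 single ones (50.9%).

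The densest stretch of at most about 50 kb differed in widths between the genes. In Arhgap26 it held 11 intervals (chr18:39017604-39067476), 3 of them 201 bp, and in Ptprd 10 (chr4:76327420-76371828), 3 of them 201 bp. In Naaladl2 it held 9 (chr3:24722839-24771947), 4 of them 201 bp, and in Macrod2 8 (chr2:140740557-140790692), 3 of them 201 bp. In Gpc5 4 of 7 were 201 bp, in Dlg2 5 of 6 and in Lrp1b 4 of 5. All 5 intervals of the densest stretch of Cntnap2 (chr6:45252326-45300635) were 201 bp. The widest single intervals were one of 394 bp in Arhgap26 (chr18:39004853-39005246) and one of 392 bp in Dlg2 (chr7:91740052-91740443). In Gpc5 the widest was 358 bp (chr14:115345677-115346034), in Naaladl2 336 bp, in Lrp1b 310 bp, in Ptprd 308 bp, in Macrod2 298 bp and in Cntnap2 280 bp.

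**Figure D5:**
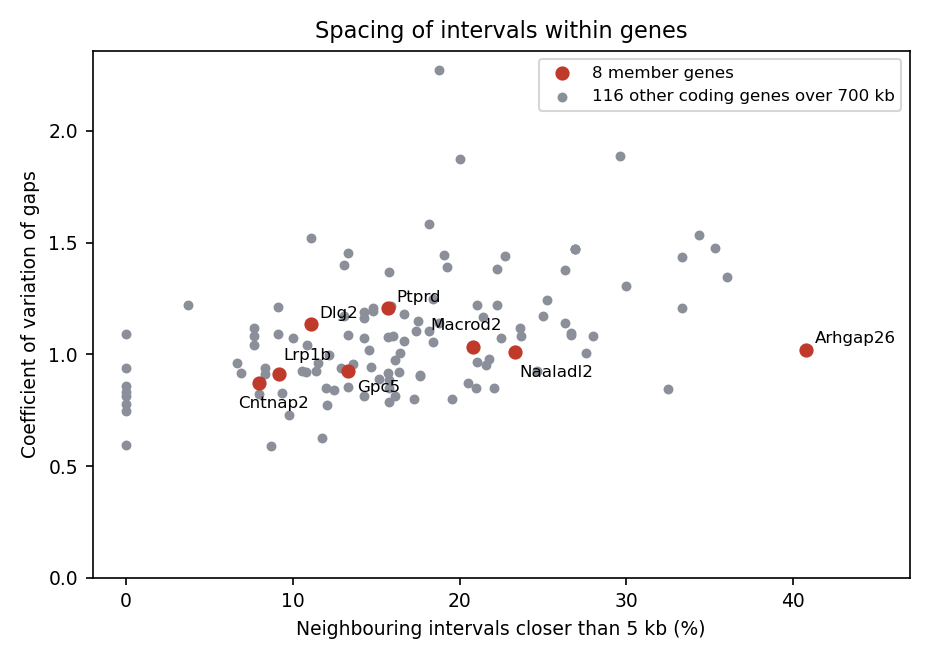
Coefficient of variation of the gaps between neighbouring interval centres against the percentage of neighbours closer than 5 kb, for the 8 genes (red) and the 116 other genes over 700 kb (grey). Arhgap26 lies farthest right at 40.8% with a coefficient of 1.02, and all 8 genes lie between 0.872 and 1.21 on the vertical axis.

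Relatives of the 8 genes by protein family were mostly short and held few intervals. Over 33 family members the median was 8 intervals (median length 102 kb, density 6.42 per 100 kb) and 44.4% were 201 bp, against a median of 3 intervals and 6.51 per 100 kb over all protein-coding genes. An interval lay within 1 kb of an end in 28 of the 33, against 61.5% of all protein-coding genes. The glypican gene Gpc6, next to Gpc5 on chromosome 14, came closest with 69 intervals in 1.05 Mb and 55.1% at 201 bp, and none of the 33 passed 70. Of the relatives of Arhgap26, Arhgap42 had 32 intervals, or 12.0 per 100 kb, and Arhgap10 had 19, or 6.61 per 100 kb, close to the median of all protein-coding genes. Among LDL receptor family genes Lrp6, a coreceptor of Wnt signalling, had 24, or 17.1 per 100 kb, and Lrp1 and the megalin gene Lrp2 had 8 each. The contactin-associated genes Cntnap5a and Cntnap5b, both over 700 kb, had 27 and 24 with 66.7% and 62.5% at 201 bp, and Cntnap4 had 3 in 313 kb. Dlg1, the ubiquitous relative of Dlg2, had 9, of which 22.2% were 201 bp. Ptprf and Ptprs, the other LAR-type phosphatase genes, had 12 and 10, and Macrod1 had 16. Naalad2 and Naaladl1 had 2 each and Folh1 had 7.

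By density, share of 201 bp intervals and variation of gaps together, the genes over 300 kb nearest to the medians of the 8 genes were Egfem1, Reln, Dpyd, Pcdh7 and Tenm2. The measure was the Euclidean distance after each value was divided by its SD over 557 genes, and it ran between 0.194 for Egfem1 and 0.344 for Tenm2. Dpyd, which encodes the first enzyme of pyrimidine breakdown, had 39 intervals in 871 kb, 4.38 per 100 kb and 64.1% at 201 bp. Reln, the gene of a secreted matrix protein, had 22 in 460 kb, 4.58 per 100 kb and 59.1%. All 5 were picked as the nearest, so their likeness to the medians was set by the choice. Their lengths ran between 417 kb in Pcdh7 and 1.23 Mb in Tenm2.

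As a check of the labelled tissue, each of 7 hepatocyte genes had an interval within 1 kb of an end, as did 4 of 6 neuronal genes and 1 of 4 macrophage genes, against 61.5% of all protein-coding genes. The count of the neuronal genes was thus near that of genes in general. Among the neuronal genes Rbfox3 and Stmn2 lacked one. Interval counts of the 6 ran between 1 in Stmn2 and 41 in Syt1, which had 7.69 per 100 kb. Their median was 4 intervals and 4.97 per 100 kb, against 3 and 6.51 over all protein-coding genes. The macrophage genes Adgre1 and C1qa had no interval in the gene or within 10 kb of it. Positions alone do not show which cells of the liver gave an interval.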

How the data were processed

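The measurement was ATAC-seq on 6 liver libraries. Per the submitters' processing notes, fastp, Bowtie2 and HOMER were used with build mm10; versions, the peak threshold, filters on duplicates, read-end shifts and how libraries were combined were not given in the sources used here. The authors deposited a single list of interval positions with 3 columns and no count, score or signal, so interval strength, depth and strain could not be compared, and a permissive threshold would add weak intervals. The planned strain comparison was not run. Whether replicates were separate animals is not stated.

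Starts were made 1-based. Gene spans came from RefSeq (GRCm38.p6), 21887 of them protein-coding, and all listed genes were matched. Genome density used chromosome spans between the first and last interval or gene, 2703 Mb in all. Pooled values counted an interval once; 3 of the 116 other long genes overlap each other and share intervals. Counting code (Python 3.11.15, pandas 2.3.3, scipy 1.17.1) was tested on simulated intervals. No test was run. The members, gene lists and comparisons were chosen with earlier results of these data known. Named genes were the 8 members, other long genes at the extremes of count, genes with over 60 intervals, family members, and the 5 most alike by 3 measures. Some genes this rule names are given only as counts. One result of a family member is not reported here. Alternatives covered flanks, centres, joining, width, length limits, gap limits and leaving out a member.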

Additional observations from a re-analysis of the deposited data

How the results depend on the processing

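No paired analysis was possible because the list names no library, and for the same reason no replicate could be left out. With wider intervals only, density was 1.86 per 100 kb in the 8 genes and 1.45 in other long genes, with 14.01% and 12.8% of gaps under 5 kb. Joining intervals within 500 bp gave 3.33 per 100 kb and 15.1% of gaps in other long genes. A limit of 500 kb for other genes gave 3.82 per 100 kb, a density ratio of 1.21, 54.6% at 201 bp and 21.1% of gaps; a limit of 1000 kb gave 3.25 per 100 kb and 60.9% at 201 bp. Gap limits of 2 and 10 kb gave 9.08% and 41.4% in the 8 genes, against 9.49% and 36.4% in the others. Leaving out 1 of the 8 genes moved density between 4.32 (without Arhgap26) and 4.85 (without Cntnap2), the ratio between 1.25 (without Arhgap26) and 1.41, the 201 bp share between 56.7% (without Lrp1b) and 63.5% (without Arhgap26), and the gap share between 14.6% (without Arhgap26) and 19.0% (without Lrp1b). Chosen after seeing the data, autosomes alone gave 3.60 per 100 kb in the others and a lower density ratio of 1.28. All 8 genes are autosomal, whereas 6 of the 116 others lie on the X chromosome. The ratio stayed above 1 under each setting run. Because the genes were chosen by their counts in this same list, such a value was favoured beforehand and is no support. Flanks of 0 and 50 kb and interval centres moved the 7 values by less than their counting intervals, and 13, 19 and 14 genes then passed 70 intervals. All 8 genes exceed 700 kb, so that limit changed nothing. The unknown depth and threshold limit every value.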

Other observations

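Several of the 8 genes have human orthologues that host common fragile sites, regions prone to breakage under replication stress. In 15 other mouse genes listed for this property, counts ran between 9 in Il1rapl1 and 76 in Magi2, with a median of 39 intervals, a median density of 3.14 per 100 kb and 54.6% at 201 bp. Of these genes 13 were over 700 kb and 1 had more than 70 intervals, against 11.3% of all genes over 700 kb. In the 116 other genes over 700 kb, which include those 13, the medians were 33 intervals and 3.28 per 100 kb. There 58.0% of intervals were 201 bp, so the listed genes were near other long genes in these values. Fhit, a nucleotide hydrolase gene of 1.61 Mb, had 67 and Immp2l, a mitochondrial peptidase gene of 932 kb, had 62. Dmd, the dystrophin gene and at 2.39 Mb longer than any of the 8, had 33 intervals on the X chromosome, 1.37 per 100 kb. Csmd1 had 45, of which 75.6% were 201 bp.

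Shares of 201 bp intervals at the extremes among the other genes over 700 kb with at least 20 intervals were 92.6% of 27 in Dcc, a netrin receptor gene, 87.5% of 56 in Sgcz, a sarcoglycan gene, and 86.3% of 51 in Erbb4, a receptor tyrosine kinase gene. The lowest share was 33.3%, in Frmpd4 with 21 intervals on the X chromosome and in Gm37013, Gm38666 and Gm38667, which overlap each other on chromosome 18 and share their 27 intervals.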
